A study of Mus musculus with 5 samples.

Results

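The genes described here encode membrane carriers for sugars, lactate and amino acids. They were chosen by symbol, as the mouse genes of the solute carrier families Slc2a, Slc5a, Slc16a, Slc1a, Slc7a and Slc38a. Of 71 such symbols in the RefSeq gene table, 69 had a named probe on the arrays, among 18327 named genes in all. No probe was named for Slc2a7 or Slc38a6.

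The study fused mouse embryonic stem (ES) cells to cancer cells and asked how the state of the hybrids related to that of their parents. Transcripts were read on Agilent mouse oligonucleotide arrays, 5 in all and 1 for each condition. ES is the embryonic stem cell line E14, and Hepa1-6 is a mouse hepatoma line. EHe is the undifferentiated hybrid made by fusing E14 with Hepa1-6, and EHeD7 and EHeD14 are EHe cells differentiated in vitro for 7 and 14 days. By the study's methods the ES parent carried red fluorescent protein and hygromycin resistance, the cancer parents carried green fluorescent protein and neomycin resistance, and hybrids were picked as colonies with a nearly tetraploid genome. Which colony gave the arrayed RNA is not given in the sources used here.

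ES and EHe were grown in Glasgow minimum essential medium with serum replacement, leukemia inhibitory factor, non-essential amino acids and pyruvate. By the labels, the differentiating hybrids were plated on gelatin in high-glucose Dulbecco's medium with fetal calf serum, and Hepa1-6 was grown in high-glucose medium of the same kind. The study's methods instead describe differentiation as embryoid bodies with serum replacement, without naming the array samples. The glucose, pyruvate and amino acids supplied to the cells thus changed together with the cell state, and medium and state cannot be told apart. Hepa1-6 was also hybridized on another slide than the other arrays, and slide and line cannot be told apart.

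Sugars enter mammalian cells through facilitative carriers of the Slc2a family or with sodium through Slc5a carriers, and lactate crosses the membrane through Slc16a carriers. Slc1a and Slc38a carriers bring in glutamate, glutamine and other neutral amino acids, while Slc7a carriers move cationic amino acids or exchange neutral ones and cystine. Several Slc7a carriers reach the cell surface bound to a heavy chain, Slc3a2 or Slc3a1, and the lactate carriers need basigin (Bsg) or embigin (Emb). Hepatocytes are known for the glucose carrier Slc2a2 and the glutamine carrier Slc38a3, and many tumor cells for Slc2a1, Slc1a5, Slc7a5 and Slc7a11.

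Values are given as a level, the log2 of a probe's processed signal relative to the 75th percentile of the same array. A level of 0 therefore lies at that percentile. A probe was measured on an array where the scanner software called it well above background, and genes with several probes were read from the brightest one. Levels of different genes come from different probes and were not set against each other. Genes are called higher or lower past a 3-fold difference, and where 1 of the 2 arrays did not measure the gene, the fold is a lower limit written as "at least". No condition had a replicate, so no difference has a p-value, and the number of arrays limits the precision. For probes with 10 spots, the SD of the log2 signal over their spots had a median between 0.072 and 0.10 per array, and it measures the noise of single spots only. The arrays read bulk cultures, in which fewer cells of a type and less RNA per cell cannot be told apart.

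The promoter sequences of 4 transporter genes are shown here because they recur in the results below. Slc16a3, Slc16a11 and Slc38a5 were among the members past 3-fold higher on differentiation, and Slc7a11 had the largest rise in Hepa1-6. This choice was therefore made after their values were seen. Slc38a3 and Slc1a3, which rose more than Slc38a5, are not shown. Each sequence is the 250 bases before the gene's start in RefSeq on build GRCm38.p6, written 5′ to 3′ on the gene's strand. Capitals mark matches, on either strand, to 3 motifs. These were the core of the amino acid response element (TGATGNAAN), the E-box (CACGTG) and the core of the hypoxia response element (ACGTG), which lies within every E-box.
Slc16a3, chr11:120948817-120949066, + strand: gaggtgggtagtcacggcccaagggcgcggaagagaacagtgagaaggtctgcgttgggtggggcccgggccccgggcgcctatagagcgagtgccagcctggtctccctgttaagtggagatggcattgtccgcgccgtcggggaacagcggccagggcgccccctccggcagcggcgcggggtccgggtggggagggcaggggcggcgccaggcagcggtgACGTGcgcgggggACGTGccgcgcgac
Slc16a11, chr11:70213660-70213909, + strand: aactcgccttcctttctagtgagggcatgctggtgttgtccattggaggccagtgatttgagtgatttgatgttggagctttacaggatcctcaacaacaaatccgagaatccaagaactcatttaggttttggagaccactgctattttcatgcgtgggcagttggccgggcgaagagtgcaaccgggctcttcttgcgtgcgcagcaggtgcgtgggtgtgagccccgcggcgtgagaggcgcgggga
Slc38a5, chrX:8271131-8271380, + strand: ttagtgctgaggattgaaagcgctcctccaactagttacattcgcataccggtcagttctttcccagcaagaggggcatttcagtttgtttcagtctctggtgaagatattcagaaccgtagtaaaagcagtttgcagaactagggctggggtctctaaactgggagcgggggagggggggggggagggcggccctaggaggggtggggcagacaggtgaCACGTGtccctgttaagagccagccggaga
Slc7a11, chr3:50443614-50443863, - strand: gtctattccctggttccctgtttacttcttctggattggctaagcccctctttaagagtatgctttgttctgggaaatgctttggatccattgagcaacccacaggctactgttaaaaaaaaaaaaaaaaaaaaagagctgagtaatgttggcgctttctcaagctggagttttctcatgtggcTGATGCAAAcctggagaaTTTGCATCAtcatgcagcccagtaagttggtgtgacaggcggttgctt

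Slc16a3 held the hypoxia core starting at -27 and at -14 from its start, Slc38a5 held an E-box at -30, and Slc16a11 held none of the 3 motifs. Slc7a11 held the amino acid response core on the gene's strand at -66 and on the opposite strand at -48. Promoter windows were found for 52 of the members, in 62 windows. The amino acid response core was found in 3 of these (4.84%) and in 3.44% of all 32851 windows, the E-box in 8 (12.9%) against 6.02%, and the hypoxia core in 14 (22.6%) against 16.6%. The members' windows had a median of 58.4% G and C and all windows 52.4%. A match is a description of the letters in these windows and not evidence of a bound factor.

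Of the 69 members, 56 were well above background on at least 1 array and 29 on all 5. ES measured 45 of them, EHe 41, EHeD7 51, EHeD14 49 and Hepa1-6 only 36. The 13 members measured on no array were Slc2a13, Slc5a8, Slc5a9, Slc5a12, Slc16a5, Slc16a14, Slc1a7, Slc7a12, Slc7a13, Slc7a14, Slc7a15, Slc38a8 and Slc38a11. The Slc16a and Slc38a families were the most widely measured, with 8 of 14 and 6 of 9 members on every array, against 3 of 13 for Slc5a and 2 of 7 for Slc1a. Slc2a had 4 of 11 and Slc7a 6 of 15. Over all 41174 probes, the arrays measured between 54.7% in Hepa1-6 and 67.6% in EHeD7, and the number of members measured ranked the arrays in the same order.

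**Figure D1:**
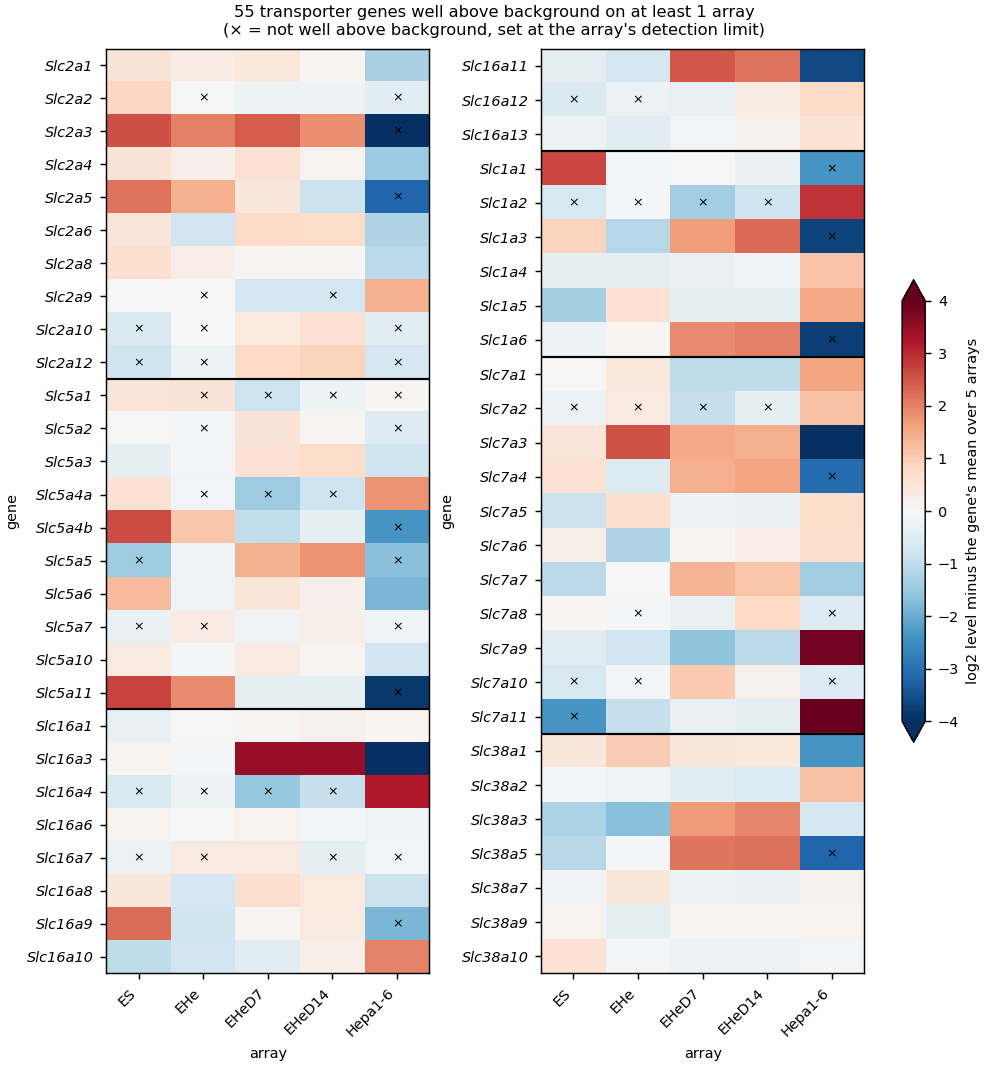
Heat map of 55 of the members measured on at least 1 array, with genes in rows, arrays in columns and color for the log2 level minus the gene's mean over the 5 arrays. A cross marks a value not well above background, drawn at the array's detection limit or at its own value where that was higher, and black lines separate the families. Slc2a3, Slc16a3 and Slc7a3 are darkest blue in Hepa1-6, Slc7a9 and Slc7a11 darkest red, and Slc16a3 is red in EHeD7 and EHeD14.

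The hybrid before differentiation was compared with its ES parent to ask which carriers changed after fusion with the hepatoma. Few did. Of 47 members measured on at least 1 of the 2 arrays, 2 were higher in EHe (4.26%) and 3 lower (6.38%), whereas 2.6% of all named genes measured were higher and 3.53% lower. The median difference, EHe minus ES, was -0.23 over the members and -0.13 over all genes.

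The 2 members higher in EHe carry amino acids. Slc7a3, a carrier of arginine and other cationic amino acids, had a level of 2.74 in ES and 4.78 in EHe, then 3.77 at day 7 and 3.71 at day 14 of differentiation, and -3.77 in Hepa1-6. It was 4.11-fold higher in EHe than in ES, although the hepatoma parent had the lowest level of the 5 arrays. Slc1a5, the exchanger through which many proliferating cells take up glutamine, stood at 1.88 in ES and 3.78 in EHe, at 2.84 and 2.80 after 7 and 14 days, and at 4.70 in Hepa1-6. It was 3.72-fold higher in EHe than in ES and highest in the hepatoma. Just short of 3-fold was Slc7a5, the exchanger of leucine and other large neutral amino acids, which was 2.92-fold higher.

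The 3 members lower in EHe were Slc16a9, a member of the monocarboxylate carrier family, and the glutamate carriers Slc1a1 and Slc1a3. The level of Slc16a9 was -1.24 in ES and -4.28 in EHe, then -3.38 at day 7 and -3.12 at day 14, and Hepa1-6 did not measure it. It was 8.22-fold lower in EHe than in ES. Slc1a1, a neuronal and epithelial glutamate carrier, stood at -0.26 in ES and between -3.20 and -2.92 in the 3 hybrid cultures, and was not measured in Hepa1-6. It was 6.76-fold lower in EHe than in ES, and its levels in the differentiated hybrids stayed near that of EHe. Slc1a3, a glutamate carrier best known from astrocytes, was 4.15-fold lower in EHe than in ES but, as described below, not in the differentiated hybrids.

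The parents themselves were compared to find the carriers by which hepatoma and ES cells differed. Of 50 members measured in at least 1 of them, 7 were higher in Hepa1-6 (14%) and 19 lower (38%). Over all named genes these shares were 13.9% and 22.3%, so the share of higher members was close to the background. The split between higher and lower moved with the scaling of the arrays, for the members and for all genes. With quantile normalization 12 members were higher (24%) and 16 lower (32%), against 16.2% and 16.2% of all genes. With each array centred on its median 14 were higher (28%) and 14 lower (28%), against 23.0% and 12.9%. These scalings moved the all-gene median of the difference between the parents by 0.32 and 0.72 on the log2 scale, so the differences below are relative to the 75th percentile of each array.

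Among the glucose carriers, 6 of the 8 Slc2a members measured were lower in Hepa1-6 and none was higher. Slc2a3, a high-affinity glucose carrier found in early embryos and neurons, had levels of 6.14 in ES and 5.60 in EHe, 5.98 and 5.42 after 7 and 14 days, and -6.53 in Hepa1-6, where it was not measured. It was at least 2793-fold lower in Hepa1-6 than in ES, and all 3 hybrid cultures lay with ES. Slc2a1, the widely expressed glucose carrier, had levels of 6.41, 6.17, 6.31, 5.95 and 4.59 in the same order and was 3.54-fold lower in Hepa1-6. Slc2a5, the fructose carrier, had levels of 0.05 in ES and -0.69 in EHe, then -1.68 at day 7 and -2.98 at day 14. It was at least 41.0-fold lower in Hepa1-6, which did not measure it.

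The other 3 were the insulin-responsive carrier Slc2a4 (3.98-fold lower) and the intracellular carriers Slc2a8 (3.35-fold) and Slc2a6 (3.24-fold). With the arrays centred on their medians, Slc2a1, Slc2a4, Slc2a6 and Slc2a8 were no longer past 3-fold, and Slc2a4 and Slc2a6 also fell short with normexp background correction and quantile normalization, while no direction changed. Slc2a2, the hepatocyte glucose carrier, was dim throughout, with levels of -4.04 in ES, -5.07 in EHeD7 and -5.06 in EHeD14. It was not well above background in EHe or in Hepa1-6, where it read -6.43 and -5.70. Slc2a9, a urate carrier, was the only Slc2a member with a positive difference between Hepa1-6 and ES, of 1.45 on the log2 scale, and did not pass 3-fold.

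Of the sodium-coupled Slc5a carriers, 3 of 8 were lower in Hepa1-6 and none was higher. Slc5a11, an inositol carrier, had levels of 1.25 in ES and 0.42 in EHe, then -1.80 at day 7 and -1.86 at day 14, and was at least 94.2-fold lower in Hepa1-6. Slc5a4b, of the sodium-glucose carrier family, ran from -0.34 in ES through -1.86 in EHe to -3.94 in EHeD7 and -3.34 in EHeD14, and was at least 31.3-fold lower in Hepa1-6. Slc5a6, which carries biotin and pantothenate, was measured everywhere, at 0.86, -0.54, 0.10, -0.19 and -2.25, and was 8.61-fold lower in Hepa1-6. Hepa1-6 thus had the lowest level of all 3 genes.

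The lactate carriers parted. Slc16a1, the widely expressed carrier of lactate and pyruvate, had levels of 3.18 in ES and 3.56 in Hepa1-6 and of 3.50, 3.55 and 3.67 in the hybrid before differentiation, at day 7 and at day 14, a range of only 0.49. Slc16a3, the low-affinity carrier through which glycolytic cells release lactate, had levels of 3.21 in ES and 3.06 in EHe, 6.59 and 6.57 after 7 and 14 days, and -3.95 in Hepa1-6. It was 144-fold lower in Hepa1-6 than in ES. Slc16a11 was 9.22-fold and Slc16a9 at least 16.8-fold lower. In the other direction, Slc16a4 was measured only in Hepa1-6, at -1.43, at least 14.1-fold above ES. Slc16a10, a carrier of aromatic amino acids, had levels of -3.08, -2.81, -2.48, -1.84 and -0.09 from ES to Hepa1-6 and was 7.96-fold higher in the hepatoma. Its dimmer probes gave 2.57-fold and 4.38-fold.

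Glutamate carriers differed in kind between the parents. Slc1a1, Slc1a3 and Slc1a6 were lower in Hepa1-6 by at least 33.1-fold, 24.1-fold and 11.7-fold, none of them being measured there. Slc1a2, the main glutamate carrier of astrocytes, which is also made in liver, was measured only in Hepa1-6, at -1.87, at least 11.8-fold above ES. Of its 4 probes, 3 were well above background in Hepa1-6 alone and 1 nowhere, and with the probes averaged the lower limit was only 0.65 on the log2 scale. The neutral amino acid carrier Slc1a5 was 7.06-fold higher in Hepa1-6 and its relative Slc1a4 2.89-fold, just short of the threshold, by its brighter probe and 5.78-fold by the other.

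In the Slc7a family, 3 of 10 members were higher and 2 lower. Slc7a11, the exchanger that brings in cystine against glutamate, was not measured in ES and had a level of 0.90 in Hepa1-6. Its levels in the hybrid were -3.99 before differentiation, -3.37 at day 7 and -3.41 at day 14. It was at least 80.2-fold higher in the hepatoma than in ES, and the hybrids lay between the parents. In EHe only 1 of its 3 probes was well above background, whereas all 3 were in the differentiated hybrids and in Hepa1-6. Slc7a9, the light chain of the kidney and gut carrier of cystine and cationic amino acids, stood at -3.71 in ES and 0.58 in Hepa1-6, 19.6-fold higher, and between -4.88 and -4.05 in the hybrids.

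Slc7a5 was 3.01-fold higher in Hepa1-6, the member closest to the threshold from above, with levels of 1.30 in ES and 2.89 in Hepa1-6, and of 2.85, 1.93 and 1.91 in the hybrid before and after 7 and 14 days. The cationic amino acid carriers went opposite ways. Slc7a1, the general carrier, had levels of 2.13, 2.53, 1.10, 1.10 and 3.69. It was 2.96-fold higher in Hepa1-6 by its brighter probe, just short of 3-fold, and 1.23-fold higher by the other. Slc7a3 was 91.2-fold lower. Slc7a4 was lower by at least 12.8-fold. For Slc7a6 the probes disagreed, since Hepa1-6 was 1.31-fold above ES by the brighter one and 4.11-fold below ES by the other.

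Among the Slc38a carriers of glutamine and other neutral amino acids, Slc38a1 and Slc38a2 lie close together in the RefSeq gene order, with 3 genes between them. Slc38a1 had levels of 3.42 in ES and 3.96 in EHe, 3.42 and 3.37 after 7 and 14 days, and 0.60 in Hepa1-6. It was 7.06-fold lower in Hepa1-6 by the brightest of its 5 probes and 19.1-fold to 38.2-fold lower by the others. On differentiation 1 of these others was past 3-fold lower, by 3.13-fold at day 7 and 3.25-fold at day 14, whereas the brightest was not. Slc38a2, which cells raise when amino acids run short, had levels of 4.43, 4.36, 4.09, 3.94 and 5.68, with its highest value in Hepa1-6, a difference of 1.25 on the log2 scale (2.38-fold) that did not pass 3-fold. Its other probe was past the threshold, 5.19-fold higher in Hepa1-6. Slc38a5 was lower in Hepa1-6 by at least 4.17-fold. That difference was no longer past 3-fold with normexp background correction, quantile normalization or median centring.

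**Figure D2:**
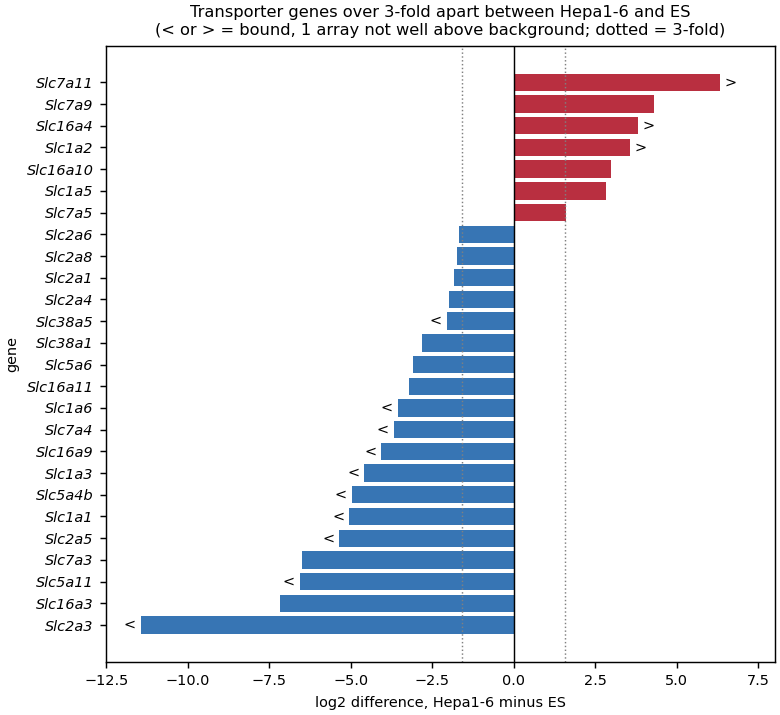
Bars show the log2 difference, Hepa1-6 minus ES, of the 26 members past 3-fold, with 7 higher in Hepa1-6 in red and 19 lower in blue. Arrowheads mark limits where 1 of the arrays did not measure the gene, and dotted lines mark 3-fold. The bars run from at least 2793-fold lower for Slc2a3 to at least 80.2-fold higher for Slc7a11.

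Differentiation of the hybrid was followed by comparing EHeD7 and EHeD14 with EHe. The 2 comparisons share the EHe array, so their values are given side by side and do not count as independent. At day 7, 8 of 51 members were higher (15.7%) and 2 lower (3.92%), against 7.12% and 4.3% of all named genes. At day 14, 9 of 49 were higher (18.4%) and 2 lower (4.08%), against 7.37% and 4.76%. The members' median difference from EHe was 0.33 at day 7 and 0.23 at day 14, and that of all genes was -0.017 and -0.024. The share of members that rose was thus above that of all genes at both days, and the share that fell was near it.

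Slc16a3 had the largest rise at day 7. It was 11.6-fold higher than in EHe at day 7 and 11.5-fold at day 14, and its levels of 6.59 and 6.57 were above those of both parents. Slc16a11, of the same family, had levels of -1.73 in ES and -4.93 in Hepa1-6. In the hybrid it stood at -1.99 before differentiation, 1.17 at day 7 and 0.85 at day 14, 8.94-fold and 7.16-fold over EHe. Both genes stood in the differentiated hybrids above both parents. Slc16a13, the next gene to Slc16a11 in the RefSeq order, differed from EHe by only 0.32 and 0.60 on the log2 scale.

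The glutamate carriers Slc1a3 and Slc1a6 also rose. Slc1a3 had levels of -0.71 in ES and -2.77 in EHe, then 0.05 at day 7 and 0.66 at day 14, and was not measured in Hepa1-6. It was 7.04-fold over EHe at day 7 and 3.43 higher on the log2 scale at day 14. Slc1a6, known from Purkinje cells of the cerebellum, had levels of -1.75, -1.47, 0.33 and 0.47 in the same arrays, 3.50-fold and 3.85-fold over EHe. Its day 7 difference was no longer past 3-fold with normexp background correction.

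Slc38a3, a glutamine carrier of hepatocytes, kidney and astrocytes, had levels of -3.10 in ES and -3.50 in EHe, -0.14 and 0.11 after 7 and 14 days, and -2.54 in Hepa1-6. It was 10.3-fold and 12.3-fold higher than in EHe, the largest rise at day 14, and the hepatoma parent did not share the high level. Slc38a5, a related glutamine carrier, had levels of -3.24, -2.16, 0.02 and 0.08 in the arrays from ES to EHeD14, 4.52-fold and 4.70-fold over EHe, and was not measured in Hepa1-6. Slc7a4, a member of the cationic carrier branch without a settled substrate, had levels of -1.63, -2.77, -0.78 and -0.65 from ES to EHeD14, 3.99-fold and 4.35-fold over EHe. Slc5a5, the iodide carrier, was not measured in ES or Hepa1-6. Its levels of -3.77 in EHe, -2.22 in EHeD7 and -1.85 in EHeD14 gave differences of 2.94-fold and 3.79-fold. With normexp background correction, Slc7a4 at day 7 and Slc5a5 at day 14 were no longer past 3-fold.

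The falls were fewer and lay among sugar and inositol carriers. Slc5a11 fell 4.67-fold by day 7 and 4.86-fold by day 14. Slc5a4b fell 4.23-fold by day 7, not past 3-fold with normexp background correction, and differed by -1.48 on the log2 scale at day 14. Its other 2 probes were past 3-fold lower at day 14, by 3.42-fold and 3.35-fold. The fructose carrier Slc2a5 differed by -0.99 at day 7 and fell 4.91-fold by day 14. All 3 had their highest level in ES and were not measured in Hepa1-6.

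**Figure D3:**
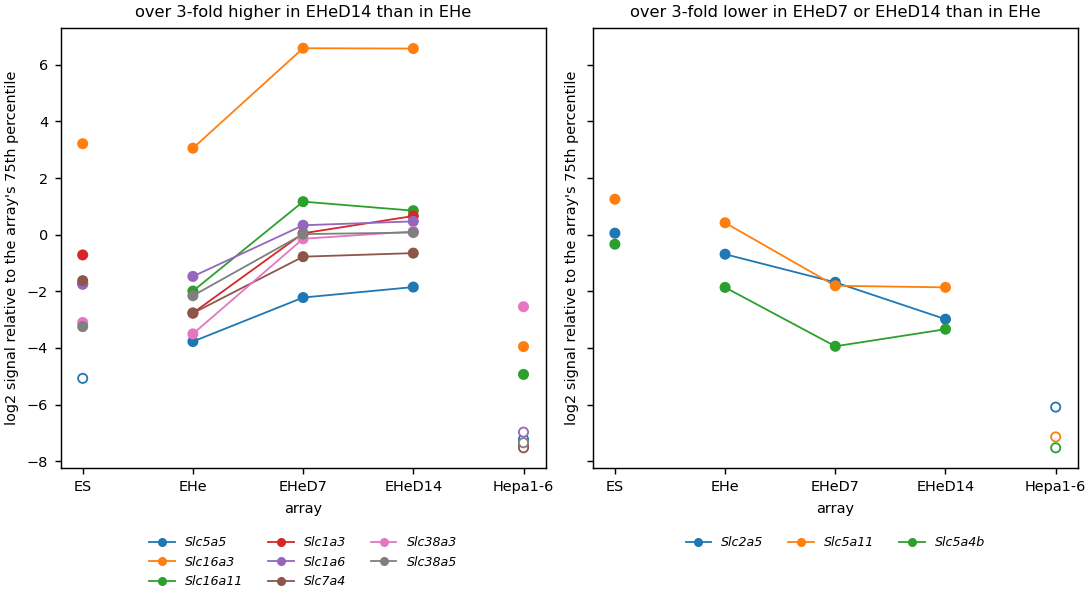
Log2 levels on the 5 arrays of 8 of the members over 3-fold higher in EHeD14 than in EHe (left) and of the 3 members over 3-fold lower in EHeD7 or EHeD14 (right). Lines join the hybrid before and after differentiation, parents stand as points, and open points were not well above background. In Hepa1-6 every gene shown lies below its level in EHeD14.

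Between day 7 and day 14 the carriers changed little. None of 51 members passed 3-fold in either direction, against 0.518% of named genes higher and 0.681% lower at day 14, and their median difference was -0.014. The largest were Slc2a5, 2.47-fold lower at day 14, and Slc7a8, a carrier of neutral amino acids, 2.14-fold higher.

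Of the 56 members compared, 27 passed 3-fold in no comparison. Among them were Slc7a7, which exports cationic amino acids in exchange for neutral ones and had levels of 3.72, 4.83, 6.17, 5.92 and 3.43 from ES to Hepa1-6. It was highest in the differentiated hybrids, 2.53-fold and 2.12-fold over EHe. Slc2a10, Slc2a12, the choline carrier Slc5a7 and Slc7a10 were measured in the differentiated hybrids only, Slc5a1 in ES only, Slc16a7 in EHeD7 only and Slc7a2 in Hepa1-6 only, all at levels below -3.

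The main carriers of glucose changed little on differentiation. Slc2a1 and Slc2a3 lay at most 0.38 on the log2 scale from their EHe levels at both days, and Slc16a1 at most 0.18. The smallest ranges over all 5 arrays, among members measured on each, were 0.32 for Slc16a6, 0.49 for Slc16a1, 0.53 for Slc38a9 and 0.73 for Slc38a7. The dimmer probes of Slc38a9 were 2.43-fold and 2.56-fold lower in Hepa1-6 than in ES, so its narrow range holds for the brightest probe only.

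Cell types other than hepatocytes were looked for with marker lists, because carriers such as Slc1a3, Slc1a6 and Slc38a3 are known from more than 1 tissue. Of 9 neural and astroglial markers, 5 were measured in EHe, 7 in EHeD7 and 5 in EHeD14, and the log2 of their summed level was 3.25, 3.80 and 3.81. Nes was higher on differentiation and Pax6 and Tubb3 were lower. Map2 was 2.55-fold and 2.96-fold higher than EHe at days 7 and 14, and Sox1 was 2.25-fold and 2.38-fold lower. Fabp7 was measured in EHeD7 and EHeD14 only and Olig2 in EHeD7 only. Gfap was measured in ES and EHeD7 but not in EHe or EHeD14, and Aqp4 on no array. Of 8 fibroblast and mesenchyme markers, Col1a1, Col1a2, Thy1 and Pdgfrb were higher at both days, with a summed level of 0.0072 in EHe, 2.29 in EHeD7 and 2.44 in EHeD14. Col3a1 and Pdgfra were measured at both days but not in EHe and did not pass 3-fold. Dcn and Lum were not measured in any hybrid culture. The summed level in Hepa1-6 was 7.46, nearly all of it from Dcn at 7.46, so this list does not set fibroblasts apart from the hepatoma parent. Of 7 endoderm markers 2 were higher and 1 lower at day 7 and 5 were higher at day 14, the summed level being 0.14, 1.27 and 2.19. In ES this summed level was already 2.42. Before differentiation, 4 of the 7 were lower in EHe than in ES (Gata6, Sox17, Foxa2 and Cubn), against 3.53% of all named genes. Of 5 trophoblast markers with a named probe, 2 were measured in EHe, 4 in EHeD7 and 3 in EHeD14, and Tpbpa was measured nowhere. Eomes and Krt7 were higher, and the summed levels were -2.51, 1.93 and 2.15. Of 3 endothelial markers Pecam1 was lower at both days, and of 3 adipocyte markers none passed 3-fold on differentiation. Over all named genes, 7.12% were higher and 4.3% lower than EHe at day 7, and 7.37% and 4.76% at day 14.

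Hepatocyte markers stayed near or below background in the hybrids. Of 8 in the list with a named probe, 6 were well above background in Hepa1-6, and the summed level there was 7.66. Alb and Afp stood at 6.06 and 6.77 in Hepa1-6, but Ttr and Apoa1 were not detected. In EHe, EHeD7 and EHeD14, 0, 2 and 1 of them were measured, at summed levels of -3.53, -3.18 and -2.85, and Alb was at background in all 3. All 7 pluripotency markers with a named probe were well above background in ES and in the 3 hybrid cultures. Sox2, Zfp42, Esrrb and Klf4 were lower than in EHe at both days, whereas Pou5f1, Tdgf1 and Dppa5a stayed within 3-fold of EHe. At day 14 Sox2, Zfp42, Esrrb and Klf4 were lower by 4.48-fold, 17.0-fold, 116-fold and 41.8-fold. The summed level of the list was 8.62 in EHe, 7.90 at day 7 and 7.06 at day 14. The part of other cell types in the carriers' values was not tested.

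Whether the carriers moved toward the hepatoma on differentiation was asked by setting the change from EHe to EHeD14 beside the difference between the parents, which share no array. Of the 7 members higher in Hepa1-6 than in ES, none rose and none fell past 3-fold in EHeD14, with 5 of them measured there or in EHe. Of all 2029 named genes higher in Hepa1-6, 17.4% rose and 3.35% fell. Of the 19 members lower in Hepa1-6, 6 rose (31.6%) and 2 fell (10.5%), whereas of the 3240 named genes of that kind 9.04% rose and 12.4% fell. The 6 were Slc16a3, Slc16a11, Slc1a3, Slc1a6, Slc7a4 and Slc38a5, and the 2 were Slc2a5 and Slc5a11. Past 3-fold, more of these members thus moved away from the hepatoma level than toward it, in a comparison of 4 single arrays. The median change of all 19 was only -0.051 on the log2 scale, toward the hepatoma, and that of the named genes of that kind was -0.21.

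**Figure D4:**
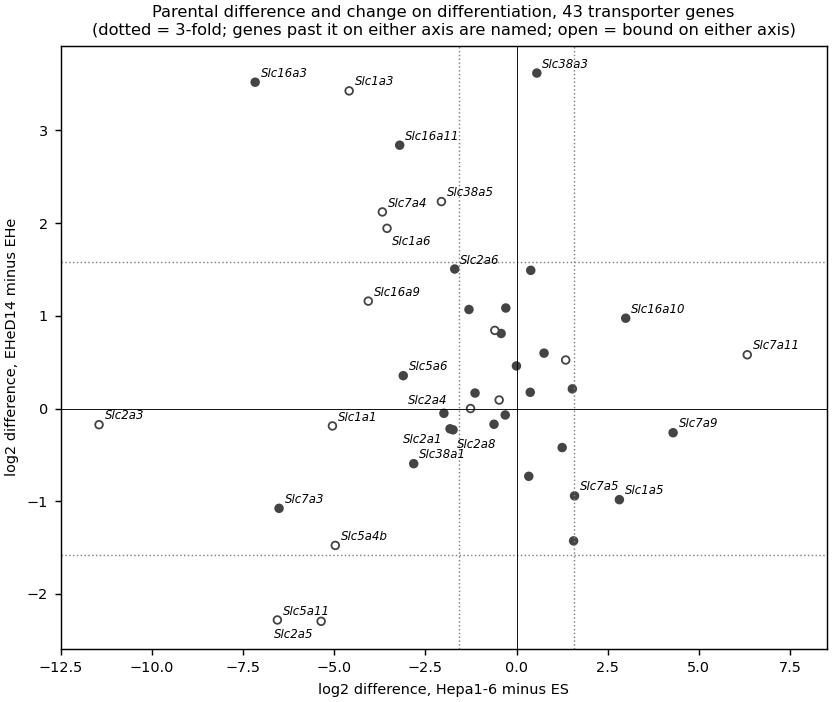
Each point is 1 of 43 members with a value in both comparisons, with the log2 difference between Hepa1-6 and ES on the horizontal axis and between EHeD14 and EHe on the vertical axis. Dotted lines mark 3-fold, and the 15 open points rest on a limit in at least 1 comparison. The upper left corner holds 6 named genes, the lower left corner 2 and both right corners none.

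The partners of the carriers were read from a list of 4. The heavy chain Slc3a2 had levels of 5.37 in ES and 5.93 in EHe, 5.43 and 5.33 after 7 and 14 days, and 6.15 in Hepa1-6. Bsg had levels of 1.94, 2.09, 2.45, 2.57 and 3.01 in the same order, and neither gene passed 3-fold in any comparison. Emb, the partner preferred by some lactate carriers, had levels of 0.45 in ES and 3.12 in EHe, then 3.68 at day 7 and 4.22 at day 14, and was not measured in Hepa1-6. It was 6.38-fold higher in EHe than in ES and at least 53.9-fold lower in Hepa1-6. Slc3a1, the heavy chain that Slc7a9 pairs with in kidney and gut, was measured on no array, although Slc7a9 was measured on all 5.

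Genes that cells switch on when amino acids run short or the endoplasmic reticulum is stressed were read from a list of 15, all measured on every array. In EHe 2 were higher than in ES and none lower, against 2.6% of all named genes higher. In Hepa1-6 8 were higher and none lower, with a median difference of 1.76, against 13.9% of all named genes higher. At day 7, 6 were lower than in EHe and none higher, with a median of -0.99, and at day 14 4 were lower and none higher, with a median of -1.12. Of all named genes, 4.3% and 4.76% were lower at these days. Chac1, which degrades glutathione, was higher than in ES by 4.27-fold in EHe and 10.9-fold in Hepa1-6, and 13.1-fold and 5.70-fold lower than EHe at days 7 and 14. Nupr1, a stress-induced nuclear protein, gave 8.65-fold, 13.2-fold, 33.8-fold and 29.9-fold in the same order and directions. Ddit3, the stress transcription factor CHOP, was 50.9-fold higher in Hepa1-6 than in ES.

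Carriers known as targets of this response were set beside it. Slc7a11, Slc7a5 and Slc1a5 were higher in Hepa1-6 than in ES, and Slc7a3 was lower. Slc7a1 and Slc38a2 were 2.96-fold and 2.38-fold above ES, and 1.23-fold and 5.19-fold by their dimmer probes. On differentiation, when Chac1, Trib3, Atf5 and Nupr1 fell at both days, none of these 6 carriers passed 3-fold. For 5 of them the values at both days lay below EHe by the brightest probe. The falls were 2.69-fold each for Slc7a1, 2.02-fold and 2.11-fold for Slc7a3, and 1.91-fold and 1.98-fold for Slc1a5. They were 1.89-fold and 1.92-fold for Slc7a5 and at most 1.34-fold for Slc38a2. By its dimmer probe Slc7a1 was 2.97-fold and 1.29-fold lower. The dimmer probe of Slc38a2 instead lay above EHe at both days, by 1.14-fold and 1.30-fold. Slc7a11 lay above EHe, by 1.53-fold and 1.49-fold. Asparagine synthetase (Asns), a classical target, also stayed within 2-fold in every comparison.

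**Figure D5:**
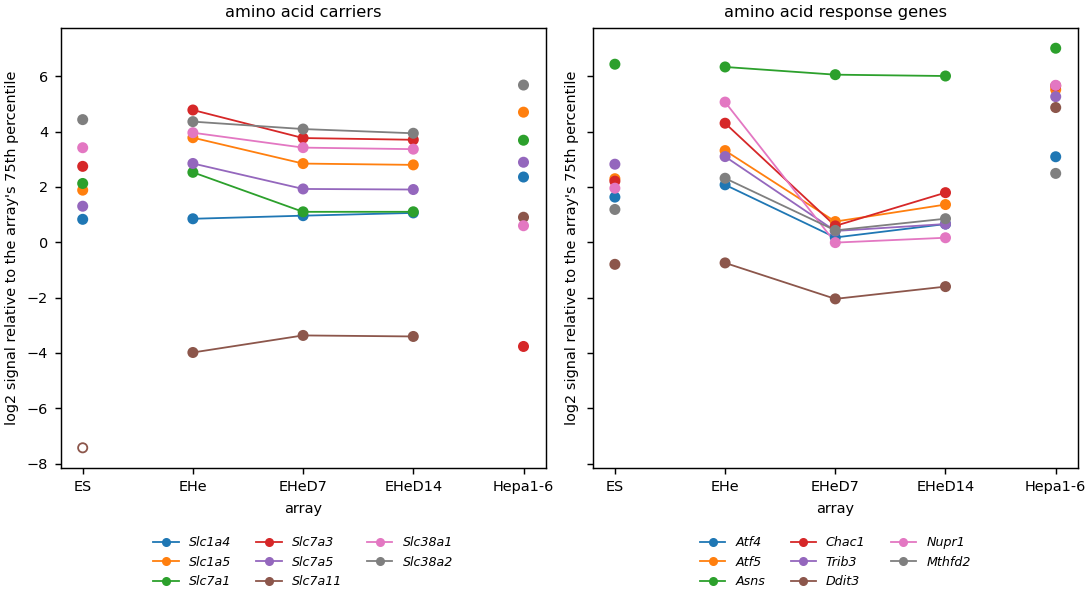
Log2 levels on the 5 arrays of 8 amino acid carriers (left) and of 8 genes from the list of 15 amino acid response genes (right). The genes on the right hold all 6 of the list that were past 3-fold lower than EHe at day 7, so they do not stand for the whole list. Lines join EHe, EHeD7 and EHeD14, parents stand as points, and the open point (Slc7a11 in ES) was not well above background. Of the response genes Nupr1 falls most from EHe to EHeD7, whereas the carriers stay within 3-fold of EHe at both days.

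Glucose and lactate enzymes and hypoxia genes were read beside Slc16a3. Of 9 enzymes, Ldha, which makes lactate, was 3.44-fold higher than EHe at day 7 and 2.06-fold at day 14, and ketohexokinase (Khk), the first enzyme of fructose use, was 2.36-fold and 3.04-fold higher. In Hepa1-6, Ldhb and Khk were lower than in ES, by at least 3514-fold and by 6.39-fold. Of 8 hypoxia genes, Egln3, Bnip3 and Ankrd37 were higher at day 7, by 4.59-fold, 3.62-fold and 3.43-fold, against 7.12% of all named genes. At day 14 they were 1.94-fold, 2.57-fold and 2.34-fold higher, with no gene of the list past 3-fold. Vegfa was 2.40-fold and 2.46-fold lower than EHe at days 7 and 14, and Ndrg1 was 2.42-fold and 1.76-fold higher. Hif1a, Car9 and Adm stayed within 2-fold of EHe at both days. In Hepa1-6 the hypoxia genes were split, with Ndrg1 78.0-fold and Egln3 4.39-fold higher than in ES and Adm, Car9 and Ankrd37 lower.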

How the data were processed

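The authors deposited 1 table per array from Agilent Feature Extraction 10.7.3.1, read in 1 channel. For each spot it holds the processed signal, an intensity from which this software had removed background and spatial trend within the array, and calls for outlier and well-above-background spots. The deposited intensities were not normalized between arrays, and the series table repeated them. The dye is Cy3 in the labels and Cy5 in the methods.

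Control spots and outlier spots (between 73 and 174 per array) were left out, and no spot was saturated. The deposited signals were put on the log2 scale here, less the log2 of the 75th percentile on the same array, and the spots of a probe were averaged. A probe counted as well above background where no fewer of its spots were so called than not. Of 41174 probes, 26888 were named through accessions of the RefSeq table of GRCm38.p6 and 14286 were left unnamed. One further gene of the Slc38a family, and values of some other single genes that the counts include, are not reported here. The 69 members had 104 probes, and the probe with the highest mean level stood for its gene. A dim value was raised to the lowest signal that the array had well above background, which makes the difference a limit. Genes measured on at least 1 of the arrays compared were counted past 3-fold, and the same counts were made over all named genes.

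The members named were the 8 largest rises and falls past 3-fold in each comparison and 13 carriers of general interest. The members and lists were chosen with earlier results of these data known. The alternatives tried were normexp correction of the median spot signal (offset 50), quantile normalization, median centring, the series table, signals without the limit, members measured on every array, averaging the probes of a gene, and a 2-fold threshold. Only the step that takes and calls differences was tested on simulated data, with known folds put into genes well above background in ES. Scaling, the choice and naming of probes and the limits for dim values were not the object of that test. Software was Python 3.11.15 with numpy 2.4.6, pandas 2.3.3 and matplotlib 3.10.9, and R 4.3.3 with limma 3.58.1.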

Additional observations from a re-analysis of the deposited data

How the results depend on the processing

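No paired analysis was possible because no condition had more than 1 array. Of 131 values of counts and medians under the alternatives, 94 lay within 1.5 times the count or within the spot noise of the median, 36 lay beyond and 1 changed sign. No single called member changed direction in 335 values, and 16 were no longer past 3-fold. Of these values, 52 came from the series table, 52 from signals without the limit and 23 from the filter on all 5 arrays. Those settings could not reverse or lose a call, because they repeat its value or can only enlarge it. The series table changed nothing. With normexp background correction the median difference of the members was -0.36 for EHe against ES and 0.34 for EHeD14 against EHe. With this correction 1 member was lower in EHeD7 (1.96%, against 2.41% of all named genes). With quantile normalization 12 members were higher in Hepa1-6 than in ES, with a median of -0.085. With median centring 14 were higher, and the median changed sign to 0.083, beside medians of -0.12 for EHe against ES, 0.15 for EHeD7 and 0.079 for EHeD14 against EHe. Signals used as measured, without the limit, gave 6 members lower in EHe than in ES (12.8%, against 6.15% of all named genes) with a median of -0.34. They gave medians of -0.88 for Hepa1-6 against ES and 0.53 for EHeD7. In EHeD14, 14 members were then higher (28.6%, against 10.3%) with a median of 0.60. Keeping only the 29 members measured on all 5 arrays removed many of the changes. Of these, 0 were lower in EHe than in ES, against 2.02% of all named genes so filtered. In Hepa1-6, 4 were higher (13.8%) and 9 lower (31.0%) with a median of -0.30, against 12.9% and 15.6%. At each day of differentiation 4 were higher (13.8%) and 0 lower. Of all genes so filtered 4.54% and 2.24% were so at day 7, and 4.68% and 2.69% at day 14. Of the members, 0 were lower in both Hepa1-6 and EHeD14. With the mean of a gene's probes the median was -0.59 for Hepa1-6 against ES and 0.35 for EHeD14 against EHe. Past 2-fold, 7 members were higher (14.9%) and 9 lower (19.1%) in EHe than in ES, against 7.38% and 10.1% of all named genes. In Hepa1-6, 14 were higher (28%), against 20.1%. At day 7, 14 were higher (27.5%) and 4 lower (7.84%), against 12.8% and 8.52%. At day 14, 15 were higher (30.6%) and 5 lower (10.2%), against 13.3% and 9.65%. Between the days 1 was higher and 1 lower (1.96% each), against 1.31% and 1.89%. Past 2-fold, 4 members were lower in both Hepa1-6 and EHeD14. Of the 52 calls, normexp kept 45, median centring 47, quantile normalization 49 and the mean of probes 51. The filter on all 5 arrays and the 2-fold threshold change the counts by their construction. The cause of the other shifts was not tested. Dim signal made 19 of the 50 differences between the parents limits rather than measured values.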

Other observations

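Among 8 antioxidant genes, of interest beside the cystine exchanger Slc7a11, Nqo1, a quinone reductase, was 18.9-fold lower in Hepa1-6 than in ES and 5.07-fold and 3.80-fold lower than EHe at days 7 and 14, and Srxn1 was 3.39-fold lower at day 14. No antioxidant gene of the list was past 3-fold higher in any comparison. Of the glucose and lactate enzymes, Ldhb, a lactate dehydrogenase subunit, was 4.71-fold lower in EHe than in ES.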
